A study of Drosophila melanogaster with 10 samples.

Results

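Whole female Drosophila melanogaster larvae labelled V966M/+ were compared with larvae labelled w, and the functions and tissues of the genes that differed were described. According to its strain label V966M/+ is heterozygous for V966M, a point mutation in AGO2 that removes the slicing activity of the protein. The w strain is the control, and both strains were sampled as whole larvae in the third instar. The comparison used 4 of the 10 mRNA libraries of the study, 2 from V966M/+ and 2 from w, numbered replicate 3 and replicate 4 in each strain. The V966M libraries, 2 from larvae labelled with the allele alone, served as a further comparison. The titles of the V966M/+ libraries name the allele in duplicate while the strain label gives the heterozygote. The strain label was followed here, and the level of AGO2 mRNA cannot check a point mutation. Titles and strain labels conflict in the same way for the libraries of the study's null allele. Which of them is right was not tested, so V966M/+ is a label here and not a checked genotype. Nothing in the sources used here states that the strains share a genetic background, so the allele and the background cannot be told apart.

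Argonaute2 (AGO2) is loaded with small interfering RNAs, cuts RNAs that pair with them and so restrains viruses and transposons in the fly. It is also found in the nucleus, at promoters of active genes. A whole larva of the third instar mixes fat body, midgut, body wall muscle, epidermis, salivary gland, nervous system and imaginal discs. In such bulk samples fewer cells of a type and less RNA per cell cannot be told apart.

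Total counts were 39831235 and 26129296 in the V966M/+ libraries, against 51300702 and 24282019 in the w libraries, with replicate 3 first in every pair of values here. Mitochondrial genes took 10.2% and 5.57% of counts in V966M/+, against 8.54% and 7.94% in w. Levels are given as CPM, counts per 1000000 counts of a library whose size is scaled by TMM factors. A count of 0 allows up to 3 counts, or 0.0655 and 0.0909 CPM in V966M/+, against 0.0548 and 0.127 CPM in w, and these limits cover counting error only. Reads of 11 Y-linked genes numbered 0 and 0 in V966M/+, against 1 and 0 in w, in libraries labelled female. Among the study's other libraries, which entered the same fit, 51B/+ replicate 3 had 18 such reads. Fat body storage genes, glue genes of the salivary gland, muscle genes and gut protease genes were all detected in the 4 libraries. AGO2 (FBgn0087035, 3L:15554113-15561042 in dm6) had 249 and 194 CPM in V966M/+ libraries, against 229 and 152 CPM in w libraries. The values of the strains overlapped and the difference did not pass the test (log2 fold change 0.21 with SE 0.27, edgeR adjusted p = 0.862).

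Of 13551 genes tested, 155 (1.14%) passed an adjusted p under 0.1 (Benjamini-Hochberg) in the edgeR quasi-likelihood test and are referred to as called. Of these, 57 were higher in V966M/+ (0.421% of the genes tested) and 98 were lower (0.723%). These shares are the background for every count of list members called by this test below. Among the higher genes were antimicrobial peptides, lysozymes and sugar taste receptors, and among the lower genes a methuselah-like receptor, conjugating enzymes of detoxification and esterases. Cuticle and cytochrome P450 genes were called in both directions. Both V966M/+ libraries lay on 1 side of both w libraries for all 155, a pattern also met by 18.2% of tested genes in the higher direction and 21.2% in the lower. The fold change was at least 4 for 36 higher and 38 lower genes. Protein-coding genes made up 146 of the calls, ncRNA genes 7 and pseudogenes 2. Of the 155 genes, 33 belonged to the lists of tissues and functions used here and 122 did not, and 76 had only a CG or CR number as their symbol.

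**Figure D1:**
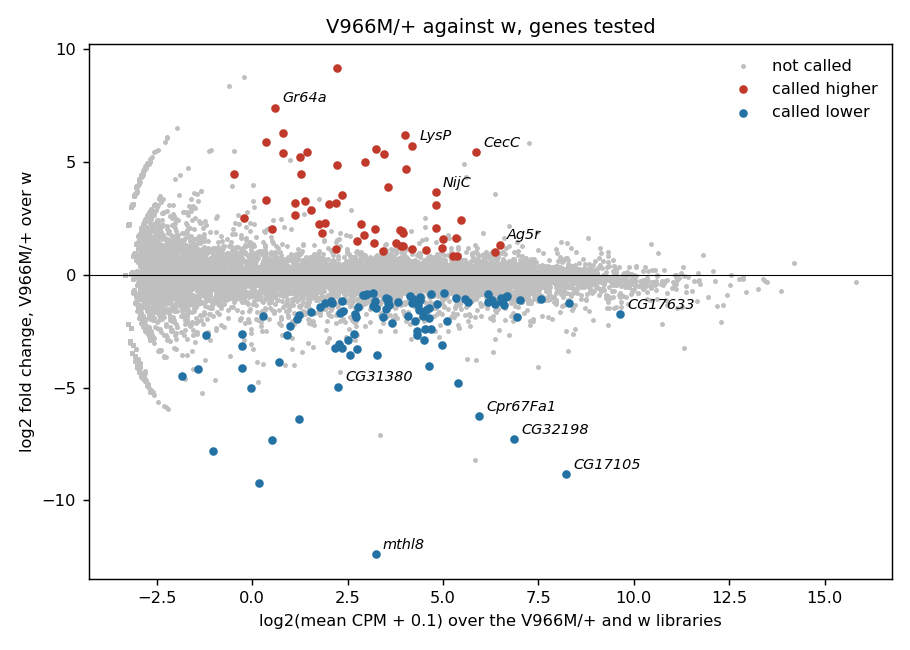
Each point is 1 of the 13551 genes tested, with the log2 of its mean level (CPM + 0.1) over the V966M/+ and w libraries on the x axis and its log2 fold change, V966M/+ over w, on the y axis. Red points are the 57 genes called higher and blue points the 98 called lower, with CecC at 5.43. The lowest blue point is mthl8, whose fitted value depends on the prior count because it had 0 counts in V966M/+.

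The calls rested on few libraries, and 44 of the 155 (19 higher, 25 lower) kept an adjusted p under 0.1 when any 1 of the 4 libraries was left out. Leaving out V966M/+ replicate 3 lost 25 of the calls, V966M/+ replicate 4 lost 85, w replicate 3 lost 98 and w replicate 4 lost 83. In the fit of the 2 strains alone 53 were lost. Counting ignored strand, and 39 of the called genes share exon bases with another gene, so the source of some of their reads is uncertain.

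Antimicrobial peptide genes were among those called higher in V966M/+. They encode small secreted peptides that fat body, gut and blood cells make against bacteria and fungi, and most answer to the Imd and Toll pathways. Of 20 tested, 4 were called higher and 0 lower, 17 had a positive fold change, and the median log2 fold change was 1.54, against 0 over all genes tested. Without w replicate 3 that median was 2.87. Their summed level was 914 and 747 CPM in V966M/+ libraries, against 194 and 81.0 CPM in w libraries. Both V966M/+ sums lay above both w sums. DESeq2 called 10 of the list higher and the edgeR exact test 12, with 0 lower in each, and 10 were higher and 0 lower at an unadjusted p under 0.05 in the quasi-likelihood test. Of the 11712 genes with an adjusted p in DESeq2, 1.48% were called higher and 4.2% lower. The exact test called 1.91% of 12035 genes higher and 3.46% lower. At an unadjusted p under 0.05 in the quasi-likelihood test, 3.26% of 13551 genes were higher and 7.93% lower. List sizes count every member tested by quasi-likelihood, also those without a result in the other tests.

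The 4 called genes were 3 cecropins, which permeabilise bacterial membranes, and Defensin, which acts mainly on Gram-positive bacteria. CecC (FBgn0000279) had 110.1 and 117 CPM in V966M/+ libraries, against 2.19 and 3.12 CPM in w libraries (log2 fold change 5.43 with SE 0.79, edgeR adjusted p = 0.0244). The pair of V966M/+ libraries was close together and both were far above w. CecA2 had 7.04 and 3.12 CPM in V966M/+ libraries, against 0.11 and 0.127 CPM in w libraries (log2 fold change 5.42 with SE 0.65, edgeR adjusted p = 0.00748). CecA1 had 30.7 and 12 CPM in V966M/+ libraries, against 0.73 and 0.211 CPM in w libraries (log2 fold change 5.35 with SE 1.0, edgeR adjusted p = 0.0758). CecA1, CecA2 and CecC lie side by side on 3R, between 30210874 and 30216938, and CecA1 and CecA2 are near-identical copies whose reads may be divided between them. Def, on 2R, had 20.2 and 9.82 CPM in V966M/+ libraries, against 0.383 and 0.59 CPM in w libraries (log2 fold change 5.0 with SE 0.74, edgeR adjusted p = 0.0222). V966M/+ replicate 3 was the higher of its pair for CecA1, CecA2 and Def, and the lower for CecC. The gene edin, named for its induction on infection and held by none of the lists, had 6.84 and 2.06 CPM in V966M/+, against 0.11 and 0.127 CPM in w (log2 fold change 5.23 with SE 0.67, edgeR adjusted p = 0.0091). CecC and CecA1 lost the call without V966M/+ replicate 4 (edgeR adjusted p = 0.106 to 0.114). CecC, CecA1, Def and edin lost the call without w replicate 3 (edgeR adjusted p = 0.116 to 0.294). CecC, CecA1 and Def lost the call without w replicate 4 (edgeR adjusted p = 0.188 to 0.423). CecA2, CecA1, Def and edin moved by over 1.5 times in fold change, to log2 fold changes of 4.71 for CecA2 without V966M/+ replicate 3, 4.55 for CecA1 without V966M/+ replicate 3, 6.63 for CecA1 without w replicate 3, 4.38 for Def without V966M/+ replicate 3, 4.11 for edin without V966M/+ replicate 3 and 5.86 for edin without V966M/+ replicate 4.

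The diptericin and attacin genes, targets of the Imd pathway, were not called. For 5 of the 6 named here both V966M/+ libraries lay above both w libraries, a pattern met by 18.2% of all genes tested. DptA had 364 and 235 CPM in V966M/+ libraries, against 8.47 and 1.77 CPM in w libraries (log2 fold change 5.83 with SE 1.34, edgeR adjusted p = 0.147). DptB had 113 and 67.9 CPM in V966M/+, against 2.92 and 3.16 CPM in w (log2 fold change 4.90 with SE 1.15, edgeR adjusted p = 0.151) and AttD had 123 and 64.2 CPM in V966M/+, against 5.79 and 3.29 CPM in w (log2 fold change 4.34 with SE 0.90, edgeR adjusted p = 0.116). In V966M/+, replicate 3 was the higher of the pair for each of these 3. The other attacins had 9.02 and 7.94 CPM in V966M/+, against 3.49 and 1.35 CPM in w for AttC, 6.58 and 7.67 CPM in V966M/+, against 2.96 and 1.77 CPM in w for AttB and 2.69 and 1.76 CPM in V966M/+, against 2.65 and 1.86 CPM in w for AttA. Drosomycin (Drs), an antifungal peptide of the Toll pathway, had 16.3 and 62.2 CPM in V966M/+, against 6.5 and 7.17 CPM in w (log2 fold change 2.52, edgeR adjusted p = 0.252). Metchnikowin (Mtk) had 13.2 and 19.0 CPM in V966M/+, against 7.41 and 5.15 CPM in w (log2 fold change 1.35, edgeR adjusted p = 0.457) and Drosocin (Dro) had 3.32 and 7.88 CPM in V966M/+, against 3.94 and 1.39 CPM in w, where the strains overlapped. CecB was at or near the floor, with 0.503 and 0.242 CPM in V966M/+, against 0.347 and 0 CPM in w.

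Bomanins, peptidoglycan recognition proteins, Turandot genes and hemocyte markers had 0 genes called by the edgeR quasi-likelihood test. The shares of all genes at an unadjusted p under 0.05 were 3.26% higher and 7.93% lower. They were 1.48% and 4.2% for DESeq2 calls and 1.91% and 3.46% for exact test calls. Among 16 tested Bomanins and immune-induced peptides, short secreted products downstream of Toll, 12 had a positive fold change and 4 were higher at an unadjusted p under 0.05, and DESeq2 called 2 and the exact test 4. Their summed level was 322 and 117 CPM in V966M/+ libraries, against 327 and 698 CPM in w libraries. IM33 had 309.8 and 89.7 CPM in V966M/+, against 318 and 691 CPM in w, with V966M/+ replicate 4 the lowest library. Of 13 peptidoglycan recognition proteins, the sensors and scavengers of bacterial cell wall, 6 were positive and 7 negative, 4 higher and 3 lower at an unadjusted p under 0.05. DESeq2 called 1 of them higher and 1 lower, and the exact test 1 lower. PGRP-LC, the Imd receptor, had 55.2 and 52.6 CPM in V966M/+, against 37.8 and 26.1 CPM in w (log2 fold change 0.75, edgeR adjusted p = 0.159). Both V966M/+ values lay above both w values, a pattern met by 18.2% of all genes tested. PGRP-SC2, a secreted amidase of the gut, had 149 and 239 CPM in V966M/+, against 384 and 466 CPM in w (log2 fold change -1.13, edgeR adjusted p = 0.204). Of 7 Turandot genes, which encode secreted stress peptides, 5 were negative, 2 of them at an unadjusted p under 0.05. Of 12 hemocyte markers 8 were positive, 1 at an unadjusted p under 0.05, with a median of 0.22. DESeq2 called 0 Turandot genes and 1 hemocyte marker, and the exact test 0 of either.

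Of 7 lysozyme genes of the salivary gland and gut, 2 were called higher and 0 lower. Of all genes tested, 0.421% were called higher and 0.723% lower. Lysozymes cut bacterial cell wall, and several of those in flies serve digestion of bacteria in the food. LysP (FBgn0004429), the salivary gland lysozyme, had 33.8 and 37.9 CPM in V966M/+ libraries, against 0.621 and 0.759 CPM in w libraries (log2 fold change 5.72 with SE 0.24, edgeR adjusted p = 2.47e-05). It stayed called when any library was left out. LysD, a midgut lysozyme that lies beside LysP on 3L between 1210717 and 1218696, had 18.0 and 18.9 CPM in V966M/+ libraries, against 0.438 and 0.295 CPM in w libraries (log2 fold change 5.57 with SE 0.87, edgeR adjusted p = 0.0329). Neither gene overlapped between the strains, which held for all 155 called genes and, in the higher direction, for 18.2% of all genes tested. LysB had 85.4 and 218 CPM in V966M/+, against 15.7 and 9.57 CPM in w, with V966M/+ replicate 4 the highest of the 4 libraries (log2 fold change 3.58, edgeR adjusted p = 0.204). LysX had 39.6 and 63.0 CPM in V966M/+, against 20.6 and 24.0 CPM in w (log2 fold change 1.20, edgeR adjusted p = 0.415). LysS had 406 and 451 CPM in V966M/+, against 423 and 856 CPM in w, and its strains overlapped. LysE had 1.18 and 3.61 CPM in V966M/+, against 2.65 and 1.18 CPM in w, and LysC had 10 and 2 counts in V966M/+, against 0 and 0 in w. LysB, LysC, LysD and LysE are near-identical copies, so the reads of each are uncertain. The summed level of the 7 was 585 and 793 CPM in V966M/+ libraries, against 463 and 892 CPM in w libraries, which overlapped, and the median log2 fold change was 3.58, or 1.20 when LysC, which is at the floor, takes its bound, and 2.76 without V966M/+ replicate 4. LysD lost the call without V966M/+ replicate 4 (edgeR adjusted p = 0.146), w replicate 3 (0.294) and w replicate 4 (0.336).

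**Figure D2:**
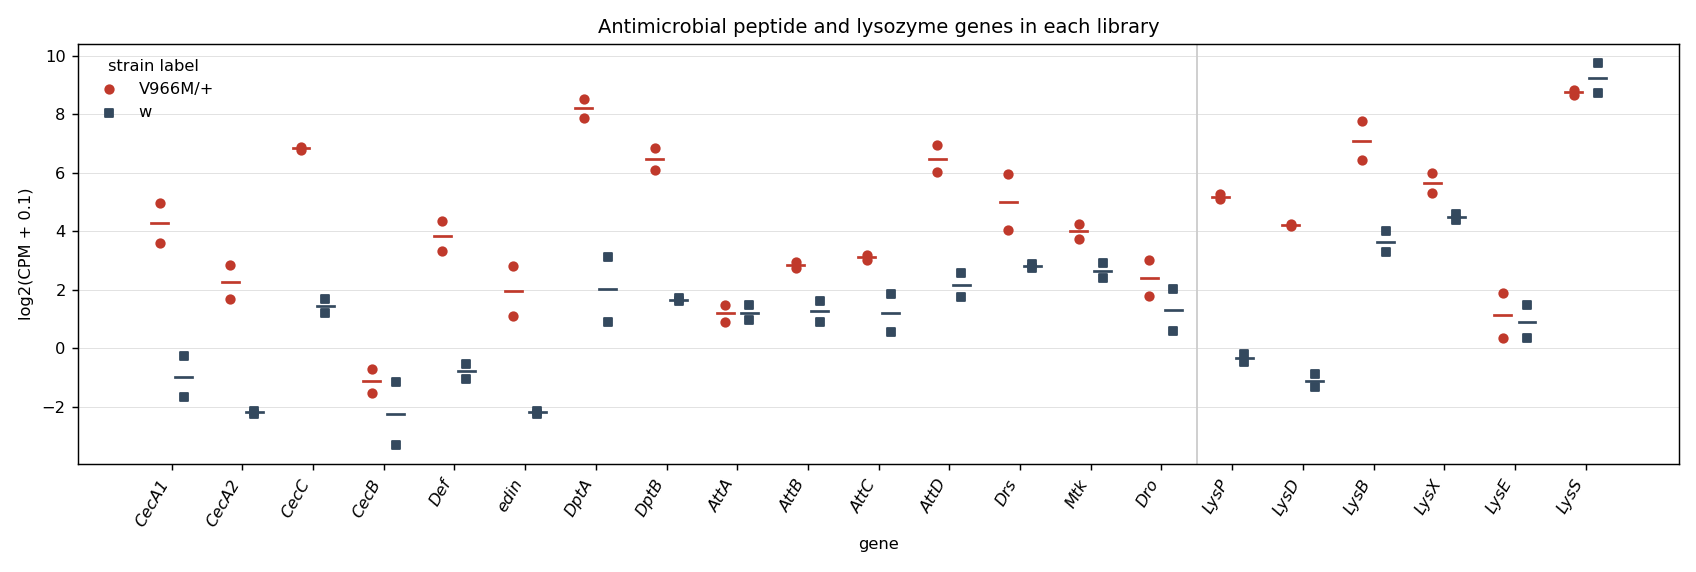
Each point is 1 library of V966M/+ (red circles) or w (dark squares), with genes on the x axis and log2(CPM + 0.1) on the y axis. Short lines mark the mean of the 2 libraries, and a vertical line separates antimicrobial peptide genes and edin from lysozymes. LysP sat at 33.8 and 37.9 CPM in V966M/+, against 0.621 and 0.759 CPM in w.

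Sugar taste receptors were the only called members of 104 tested odorant binding and chemosensory genes, with 2 higher and 0 lower. The shares over all genes tested were 0.421% higher and 0.723% lower. The median log2 fold change of the list was 0.02. Gr64a, a receptor for sugars in taste neurons, had 115 and 104 counts in V966M/+, against 0 and 1 counts in w (log2 fold change 7.40 with SE 0.88, edgeR adjusted p = 0.0091). The ratio of V966M/+ to w over the summed counts was 218 (38.8 to 8657) with its exact 95% counting interval. Gr61a, which responds to glucose, had 1.86 and 2.42 CPM in V966M/+, against 0.128 and 0.337 CPM in w (log2 fold change 3.31 with SE 0.54, edgeR adjusted p = 0.0273). Gr64f, the co-receptor of the same gene cluster, had 41 and 17 counts in V966M/+, against 1 and 0 counts in w, and was not called (edgeR adjusted p = 0.122). All 3 genes were low in these libraries. Gr61a lost the call without V966M/+ replicate 4 (edgeR adjusted p = 0.168) and w replicate 3 (0.21). Gr64a and Gr61a moved by over 1.5 times in fold change, to log2 fold changes of 5.94 for Gr64a without w replicate 3, 2.65 for Gr61a without w replicate 3 and 4.03 for Gr61a without w replicate 4. Gr64a had no count left in w without w replicate 4, so no fold change is given.

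Cytochrome P450 genes, which oxidise hormones, fatty acids and toxins, were called in both directions, with 3 higher and 3 lower of 87 tested. DESeq2 called 4 higher and 10 lower, the edgeR exact test 4 higher and 9 lower, and 5 were higher and 27 lower at an unadjusted p under 0.05. The shares of all genes with a result were, in this order, 1.48% and 4.2%, 1.91% and 3.46%, and 3.26% and 7.93%. Cyp12d1-p, a mitochondrial P450 with a near-identical neighbouring copy, had 5.64 and 3.30 CPM in V966M/+ libraries, against 0.219 and 0.169 CPM in w libraries (log2 fold change 4.46 with SE 0.41, edgeR adjusted p = 0.00209). Cyp12e1 had 26.8 and 23.1 CPM in V966M/+, against 11.3 and 11.1 CPM in w (log2 fold change 1.15 with SE 0.15, edgeR adjusted p = 0.0091), and Cyp4e3 had 13.6 and 4.94 CPM in V966M/+, against 0.913 and 0.633 CPM in w (log2 fold change 3.55 with SE 0.67, edgeR adjusted p = 0.0698). V966M/+ replicate 3 was above replicate 4 in all 3. Of the lower P450 genes, Cyp6a17 had 6.29 and 5.76 CPM in V966M/+ libraries, against 39.4 and 27.5 CPM in w libraries (log2 fold change -2.47 with SE 0.28, edgeR adjusted p = 0.00587). Its neighbour on 2R, Cyp6a8, had 8.22 and 2.30 CPM in V966M/+, against 35.3 and 33.2 CPM in w (log2 fold change -2.69 with SE 0.50, edgeR adjusted p = 0.0655). Cyp4p2 had 1.53 and 1.21 CPM in V966M/+, against 4.69 and 3.92 CPM in w (log2 fold change -1.65 with SE 0.26, edgeR adjusted p = 0.0261). Within the same cluster Cyp6a23 had 83.9 and 23.3 CPM in V966M/+, against 20.6 and 11.1 CPM in w and Cyp6a22 had 10.1 and 6.36 CPM in V966M/+, against 16.0 and 15.4 CPM in w, neither called. The median log2 fold change of the list was -0.45, with 61 of 87 negative. Cyp4p2 lost the call without V966M/+ replicate 4 (edgeR adjusted p = 0.22). Cyp4e3, Cyp6a8 and Cyp4p2 lost the call without w replicate 3 (edgeR adjusted p = 0.16 to 0.311). Cyp4e3 and Cyp6a8 lost the call without w replicate 4 (edgeR adjusted p = 0.252 to 0.427). Cyp4e3 and Cyp6a8 moved by over 1.5 times in fold change, to log2 fold changes of 2.64 for Cyp4e3 without V966M/+ replicate 3, -3.89 for Cyp6a8 without V966M/+ replicate 3 and -2.04 for Cyp6a8 without V966M/+ replicate 4.

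Further higher genes encode a membrane protein, a chaperone and proteins of neuron surfaces, and all but NijC and Hsc70-2 were picked after their values were seen. NijC, a ninjurin of the plasma membrane, had 51.0 and 52.4 CPM in V966M/+ libraries, against 4.05 and 4.18 CPM in w libraries (log2 fold change 3.65 with SE 0.29, edgeR adjusted p = 0.00112). Hsc70-2, a cognate member of the Hsp70 chaperones, had 17.5 and 26.5 CPM in V966M/+ libraries, against 1.57 and 1.35 CPM in w libraries (log2 fold change 3.90 with SE 0.36, edgeR adjusted p = 0.00203). It was the 1 called gene of 25 heat shock proteins tested, a list whose summed level was 9586 and 10120.2 CPM in V966M/+ libraries, against 6674 and 6796 CPM in w libraries. Dscam4 and side-VI, members of the immunoglobulin superfamily that sit on the surface of neurons, were both higher. Dscam4 had 25.3 and 22.6 CPM in V966M/+, against 7.12 and 5.23 CPM in w (log2 fold change 1.95 with SE 0.22, edgeR adjusted p = 0.00587). The level of side-VI was 11.6 and 11.6 CPM in V966M/+, against 3.54 and 3.37 CPM in w (log2 fold change 1.74 with SE 0.18, edgeR adjusted p = 0.00466). All 4 genes stayed called with any library left out. PH4alphaSG2, a prolyl 4-hydroxylase subunit of the salivary gland, had 17.2 and 12.6 CPM in V966M/+, against 3.71 and 3.67 CPM in w (log2 fold change 2.01 with SE 0.26, edgeR adjusted p = 0.0091) and also stayed called, although 128 of its exon bases are shared with a gene on the other strand. Its relative PH4alphaPV had 6.60 and 3.45 CPM in V966M/+, against 14.8 and 13.0 CPM in w (log2 fold change -1.46 with SE 0.28, edgeR adjusted p = 0.0601). PH4alphaPV lost the call without V966M/+ replicate 4 (edgeR adjusted p = 0.193), w replicate 3 (0.226) and w replicate 4 (0.183).

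Other higher genes with a known product had log2 fold changes of 0.85 to 2.64. Gnpnat, which makes a precursor of the UDP-sugar used for chitin and glycans, had 102 and 118 CPM in V966M/+ libraries, against 52.2 and 57.7 CPM in w libraries (log2 fold change 1.0 with SE 0.17, edgeR adjusted p = 0.0348). Pgant4, which starts O-glycan chains, had 17.2 and 26.4 CPM in V966M/+, against 9.0 and 8.86 CPM in w (log2 fold change 1.28 with SE 0.21, edgeR adjusted p = 0.0273). Both had V966M/+ replicate 4 as the highest library. Sdr, a secreted decoy of the insulin receptor, had 12.5 and 13.6 CPM in V966M/+, against 5.73 and 4.09 CPM in w (log2 fold change 1.40 with SE 0.23, edgeR adjusted p = 0.0292). NT5E-2, of the family of 5'-nucleotidases, had 52.9 and 52.2 CPM in V966M/+, against 26.6 and 31.7 CPM in w (log2 fold change 0.85 with SE 0.17, edgeR adjusted p = 0.0767), and Ag5r, an antigen-5-related secreted protein, had 139 and 118 CPM in V966M/+, against 48.8 and 52.9 CPM in w (log2 fold change 1.34 with SE 0.29, edgeR adjusted p = 0.0976). As for every gene called higher, both V966M/+ values lay above both w values for these 5, a pattern met by 18.2% of all genes tested. TwdlT, a cuticle protein of the Tweedle family, had 8.06 and 4.27 CPM in V966M/+, against 1.53 and 0.886 CPM in w (log2 fold change 2.31 with SE 0.48, edgeR adjusted p = 0.0872), and obst-G, a chitin-binding protein, had 44.4 and 43.2 CPM in V966M/+, against 17.5 and 20.6 CPM in w (log2 fold change 1.21 with SE 0.18, edgeR adjusted p = 0.0166). Mst87F, a sperm-tail gene, was the 1 called member of 27 testis markers. It had 3.04 and 4.15 CPM in V966M/+, against 0.438 and 0.759 CPM in w (log2 fold change 2.64 with SE 0.39, edgeR adjusted p = 0.0175). Of the 27 markers 15 had a positive and 8 a negative fold change, and the rest had a log2 fold change of 0. The whole list summed to 15.2 and 16.4 CPM in V966M/+ libraries, against 12.1 and 11.1 CPM in w libraries. Cul6, a cullin scaffold of ubiquitin ligases, had 5.77 and 5.18 CPM in V966M/+, against 1.52 and 1.48 CPM in w (log2 fold change 1.87 with SE 0.25, edgeR adjusted p = 0.00959). NT5E-2, Ag5r and TwdlT lost the call without V966M/+ replicate 3 (edgeR adjusted p = 0.104 to 0.148). Gnpnat, Pgant4, Sdr, NT5E-2 and Ag5r lost the call without V966M/+ replicate 4 (edgeR adjusted p = 0.125 to 0.309). Gnpnat, Pgant4, NT5E-2, Ag5r, TwdlT, obst-G, Mst87F and Cul6 lost the call without w replicate 3 (edgeR adjusted p = 0.109 to 0.33). Gnpnat, Pgant4, Sdr, NT5E-2, Ag5r and TwdlT lost the call without w replicate 4 (edgeR adjusted p = 0.175 to 0.411).

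Many of the strongest higher genes have no assigned function here. Jig had 593 and 172 counts in V966M/+, against 1 and 0 counts in w, a ratio of 762 (136 to 30144) with its exact 95% counting interval (edgeR adjusted p = 0.0078). CG18586, CG8539 and lncRNA:CR45570 likewise had between 63 and 193 counts in each V966M/+ library, against 0 to 5 in each w library. Their ratios were 89.0 (30.1 to 434), 63.8 (21.5 to 312) and 42.2 (19.1 to 116) with the same kind of interval (edgeR adjusted p = 0.00407 to 0.00571). These 4 genes were close to the floor in w. CG14715 had 49.9 and 51.4 CPM in V966M/+ libraries, against 5.33 and 6.5 CPM in w libraries (log2 fold change 3.10 with SE 0.22, edgeR adjusted p = 0.000571). CG34278 had 46.0 and 16.1 CPM in V966M/+, against 0.968 and 1.56 CPM in w (log2 fold change 4.66 with SE 0.55, edgeR adjusted p = 0.0089), and its neighbour CG42779 had 12 and 11.7 CPM in V966M/+, against 2.72 and 2.28 CPM in w (log2 fold change 2.23 with SE 0.41, edgeR adjusted p = 0.0516). The 2 neighbours lie on 3R between 17120465 and 17122087, and V966M/+ replicate 3 stood above replicate 4 for CG34278. The noncoding RNA lncRNA:CR45809 had 42.7 and 20.002 CPM in V966M/+, against 0.511 and 0.295 CPM in w (log2 fold change 6.18 with SE 0.70, edgeR adjusted p = 0.0078). CG1113 had 5.0 and 12.7 CPM in V966M/+, against 0.274 and 0.337 CPM in w (log2 fold change 4.87 with SE 0.49, edgeR adjusted p = 0.00355), with V966M/+ replicate 4 the highest library. The antisense RNA beside it, asRNA:CR44019, had 3.12 and 5.94 CPM in V966M/+, against 0.438 and 0.506 CPM in w (log2 fold change 3.27 with SE 0.43, edgeR adjusted p = 0.00933), in the same order of libraries within V966M/+. CG13947 had 59.8 and 89.0 CPM in V966M/+, against 10.9 and 16.8 CPM in w (log2 fold change 2.43 with SE 0.46, edgeR adjusted p = 0.0676) and its neighbour CG12506 had 6.77 and 3.15 CPM in V966M/+, against 0.767 and 0.59 CPM in w (log2 fold change 2.85 with SE 0.56, edgeR adjusted p = 0.0713). CG2641, mat and CG3700 were called at every omission, with log2 fold changes of 1.96, 1.64 and 1.59 (edgeR adjusted p = 0.00203 to 0.0091). CG12506 lost the call without V966M/+ replicate 3 (edgeR adjusted p = 0.165). CG42779 and CG13947 lost the call without V966M/+ replicate 4 (edgeR adjusted p = 0.197 to 0.308). Jig, CG34278, CG42779, lncRNA:CR45809, asRNA:CR44019, CG13947 and CG12506 lost the call without w replicate 3 (edgeR adjusted p = 0.109 to 0.317). CG42779, lncRNA:CR45809, CG13947 and CG12506 lost the call without w replicate 4 (edgeR adjusted p = 0.106 to 0.369). Jig, lncRNA:CR45570, CG34278, lncRNA:CR45809, CG1113 and CG12506 moved by over 1.5 times in fold change, to log2 fold changes of 8.35 for Jig without V966M/+ replicate 3, 6.13 for lncRNA:CR45570 without w replicate 3, 3.72 for CG34278 without V966M/+ replicate 3, 5.55 for lncRNA:CR45809 without V966M/+ replicate 3, 4.06 for CG1113 without V966M/+ replicate 4 and 2.20 for CG12506 without V966M/+ replicate 3. Jig had no count left in w without w replicate 3 and CG8539 had no count left in w without w replicate 3, so no fold change is given.

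The lower genes began with transcripts that were almost missing from V966M/+. The gene mthl8 (FBgn0052475, 3L:22428-26308), a G-protein-coupled receptor of the methuselah family, had 0 counts in both V966M/+ libraries, against 1070 and 423 counts in w, or 19.5 and 17.8 CPM. It was at least 196-fold lower in V966M/+ when the floor of 3 counts per library was used (edgeR adjusted p = 9.68e-05). It stayed called whichever library was left out. It was the 1 gene called of 16 tested in the family, whose median log2 fold change was 0.02. The gene mth itself had 61.4 and 54.8 CPM in V966M/+, against 39.9 and 39.1 CPM in w, and mthl3 had 83.4 and 52.6 CPM in V966M/+, against 101 and 78.1 CPM in w.

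The pseudogene alpha-Est4aPsi also had 0 and 0 counts in V966M/+, against 97 and 57 counts in w, at least 19.5-fold lower (edgeR adjusted p = 0.00724). CG33333 had 0 and 0 counts in V966M/+, against 46 and 17 counts in w, at least 7.89-fold lower (edgeR adjusted p = 0.0175), and 518 of its exon bases are shared with an antisense RNA. Cnx14D, of the calnexin family of chaperones of the endoplasmic reticulum, had 0 and 1 counts in V966M/+, against 120 and 73 counts in w. Its ratio of w to V966M/+ was 194 (34.4 to 7690.3) with its exact 95% counting interval (edgeR adjusted p = 0.0133). CG32198 had 1.94 and 0.97 CPM in V966M/+ libraries, against 231 and 232 CPM in w libraries (log2 fold change -7.29 with SE 0.59, edgeR adjusted p = 0.00128). The w libraries gave almost the same value, and both V966M/+ libraries were far below it. CG31380 was low in the same way, with 0.328 and 0.242 CPM in V966M/+ libraries, against 9.11 and 9.07 CPM in w libraries (log2 fold change -4.96 with SE 0.24, edgeR adjusted p = 3.58e-05). CG17105 had 1.25 and 1.39 CPM in V966M/+ libraries, against 748 and 456 CPM in w libraries (log2 fold change -8.83 with SE 1.31, edgeR adjusted p = 0.0273). CG17105 lost the call without V966M/+ replicate 3 (edgeR adjusted p = 0.111), V966M/+ replicate 4 (0.297), w replicate 3 (0.151) and w replicate 4 (0.118). CG33333 lost the call without w replicate 3 (edgeR adjusted p = 0.109). The calls of alpha-Est4aPsi, Cnx14D, CG32198 and CG31380 held at every omission. Cnx14D and CG32198 moved by over 1.5 times in fold change, to log2 fold changes of -6.27 for Cnx14D without V966M/+ replicate 3 and -7.89 for CG32198 without V966M/+ replicate 3. Cnx14D had no count left in V966M/+ without V966M/+ replicate 4, so no fold change is given.

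Of 122 cuticle genes tested, 2 were called lower and 2 higher. DESeq2 called 16 lower and 2 higher, the edgeR exact test 12 lower and 4 higher, and 26 were lower and 7 higher at an unadjusted p under 0.05. Over all genes with a result, the same shares were 4.2% and 1.48%, 3.46% and 1.91%, and 7.93% and 3.26%. The proteins bind chitin and form the layers of the larval and pupal cuticle under ecdysone control. Cpr67Fa1 (FBgn0036108) had 2.08 and 1.06 CPM in V966M/+ libraries, against 96.5 and 148 CPM in w libraries (log2 fold change -6.26 with SE 0.75, edgeR adjusted p = 0.0091). Its neighbour Cpr67Fa2, a near-identical copy within the same 3L interval from 10889990 to 10892516, had 4.13 and 1.45 CPM in V966M/+ libraries, against 42.5 and 50.7 CPM in w libraries (log2 fold change -4.04 with SE 0.60, edgeR adjusted p = 0.0232). No library of either strain came near the other strain for this pair. Among family members not called, Cpr67B had 152 and 189.7 CPM in V966M/+, against 165 and 186 CPM in w and Cpr49Ac had 4522 and 4677 CPM in V966M/+, against 2391 and 2687 CPM in w. The summed level of the list was 21108 and 16725 CPM in V966M/+ libraries, against 24958 and 30531 CPM in w libraries, the median log2 fold change -0.47, and 82 genes were negative. The median was -1.08 without V966M/+ replicate 3 and -0.16 without V966M/+ replicate 4. Cda9, a chitin deacetylase, was the 1 called of 23 chitin enzymes, with 53.7 and 43.9 CPM in V966M/+, against 88.7 and 122 CPM in w (log2 fold change -1.11 with SE 0.22, edgeR adjusted p = 0.0713). Cpr67Fa1, Cpr67Fa2 and Cda9 lost the call without V966M/+ replicate 4 (edgeR adjusted p = 0.102 to 0.457). Cpr67Fa2 lost the call without w replicate 3 (edgeR adjusted p = 0.109). Cpr67Fa2 and Cda9 lost the call without w replicate 4 (edgeR adjusted p = 0.151 to 0.359). Cpr67Fa2 moved by over 1.5 times in fold change, to a log2 fold change of -4.99 without V966M/+ replicate 3.

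Of 68 glutathione S-transferases and UDP-glycosyltransferases, enzymes that conjugate toxins and waste, 4 were called lower and 0 higher. DESeq2 and the edgeR exact test each called 11 lower and 2 higher, and 20 were lower and 3 higher at an unadjusted p under 0.05. Of all genes with a result, DESeq2 called 4.2% lower and 1.48% higher and the exact test 3.46% and 1.91%. At that unadjusted p, 7.93% were lower and 3.26% higher. GstD3 (FBgn0010039), of the cluster of GstD genes on 3R, had 1.86 and 1.09 CPM in V966M/+ libraries, against 15.2 and 20.4 CPM in w libraries (log2 fold change -3.57 with SE 0.30, edgeR adjusted p = 0.0013). Ugt35C1 had 1.22 and 0.758 CPM in V966M/+ libraries, against 9.46 and 7.47 CPM in w libraries (log2 fold change -3.08 with SE 0.31, edgeR adjusted p = 0.00355). Both of them stayed called with any library left out. Ugt35B1 had 1.62 and 0.212 CPM in V966M/+, against 9.28 and 8.86 CPM in w (log2 fold change -3.24 with SE 0.65, edgeR adjusted p = 0.0895), with V966M/+ replicate 4 the lowest, and Ugt36E1 had 3.52 and 2.33 CPM in V966M/+, against 7.41 and 12.2 CPM in w (log2 fold change -1.73 with SE 0.30, edgeR adjusted p = 0.0388). Other members of the same clusters were not called. GstD1, which detoxifies insecticides and lipid peroxides, had 472 and 394 CPM in V966M/+, against 732 and 881 CPM in w (log2 fold change -0.90, edgeR adjusted p = 0.269). GstD10 had 13.3 and 1.67 CPM in V966M/+, against 61.9 and 41.3 CPM in w (log2 fold change -2.78, edgeR adjusted p = 0.219), GstD4 had 0.699 and 0.242 CPM in V966M/+, against 3.74 and 3.16 CPM in w, GstD2 had 3.30 and 1.36 CPM in V966M/+, against 3.87 and 3.67 CPM in w and Ugt35A1 had 27.6 and 19.1 CPM in V966M/+, against 49.9 and 40.4 CPM in w. The list had 44 negative genes and a median log2 fold change of -0.32. Mrp5, an ABC transporter of the multidrug-resistance family, had 7.36 and 3.27 CPM in V966M/+ libraries, against 49.2 and 30.0 CPM in w libraries (log2 fold change -2.89 with SE 0.39, edgeR adjusted p = 0.0126), and 456 of its exon bases overlap a gene on the other strand. Ugt36E1 lost the call without V966M/+ replicate 4 (edgeR adjusted p = 0.297). Ugt35B1 lost the call without w replicate 3 (edgeR adjusted p = 0.279). Ugt35B1 and Ugt36E1 lost the call without w replicate 4 (edgeR adjusted p = 0.208 to 0.33). Ugt35B1 and Mrp5 moved by over 1.5 times in fold change, to log2 fold changes of -5.39 for Ugt35B1 without V966M/+ replicate 3, -2.47 for Ugt35B1 without V966M/+ replicate 4 and -3.59 for Mrp5 without V966M/+ replicate 3.

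Of 30 esterase and juvenile hormone genes tested, 4 were called lower and 0 higher. DESeq2 called 7 lower and the edgeR exact test 6, with 0 higher in each, and 10 were lower and 1 higher at an unadjusted p under 0.05. Across all genes with a result, 4.2% were called lower by DESeq2 and 3.46% by the exact test. The share at that unadjusted p was 7.93% lower and 3.26% higher. The alpha-esterases hydrolyse carboxylic esters, among them organophosphates and dietary lipids. Besides alpha-Est4aPsi, alpha-Est4 had 8.06 and 6.70 CPM in V966M/+, against 31.0 and 21.4 CPM in w (log2 fold change -1.83 with SE 0.30, edgeR adjusted p = 0.0273) and alpha-Est7 had 72.0 and 68.9 CPM in V966M/+, against 142 and 128 CPM in w (log2 fold change -0.94 with SE 0.17, edgeR adjusted p = 0.0501). The 3 lie together on 3R between 7519563 and 7538615. Another alpha-esterase, alpha-Est2, had 128 and 42.8 CPM in V966M/+, against 145 and 171 CPM in w and was not called (edgeR adjusted p = 0.504). For alpha-Est4, 594 exon bases are shared with an antisense RNA. Jhbp3, a relative of the juvenile hormone binding proteins of the hemolymph, had 0.83 and 0.455 CPM in V966M/+, against 3.14 and 3.12 CPM in w (log2 fold change -2.25 with SE 0.31, edgeR adjusted p = 0.0113). alpha-Est4 and alpha-Est7 lost the call without V966M/+ replicate 4 (edgeR adjusted p = 0.249 to 0.348). alpha-Est4 and alpha-Est7 lost the call without w replicate 3 (edgeR adjusted p = 0.16 to 0.226). alpha-Est7 lost the call without w replicate 4 (edgeR adjusted p = 0.172).

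Some lower genes encode enzymes and transporters held by none of the lists, apart from pr. All but pr and D2hgdh were picked after their values were seen, so they say nothing about metabolic genes as a group. Acsx3, of the acyl-CoA synthetase family, had 0.175 and 0.212 CPM in V966M/+ libraries, against 3.05 and 2.66 CPM in w libraries (log2 fold change -3.88 with SE 0.31, edgeR adjusted p = 0.00112) and stayed called with any library left out. Miox, which opens the inositol ring, had 72.9 and 33.0 CPM in V966M/+, against 208 and 174 CPM in w (log2 fold change -1.85 with SE 0.39, edgeR adjusted p = 0.0965), with V966M/+ replicate 4 the lowest library. The differences of several others were smaller. D2hgdh, which oxidises D-2-hydroxyglutarate in mitochondria, had 142 and 100.1 CPM in V966M/+, against 266 and 248 CPM in w (log2 fold change -1.09 with SE 0.22, edgeR adjusted p = 0.0866). Pbgs, an enzyme of heme synthesis, had 26.2 and 27.6 CPM in V966M/+, against 48.0 and 60.6 CPM in w (log2 fold change -1.01 with SE 0.21, edgeR adjusted p = 0.0866), and pr, an enzyme of pteridine eye pigment synthesis, had 37.6 and 22.2 CPM in V966M/+, against 73.7 and 66.0 CPM in w (log2 fold change -1.22 with SE 0.24, edgeR adjusted p = 0.0665). The gene pr was the 1 called of 15 eye pigment genes. Ect3, of the beta-galactosidase family, had 8.83 and 10.5 CPM in V966M/+, against 31.9 and 36.7 CPM in w (log2 fold change -1.83 with SE 0.25, edgeR adjusted p = 0.0113) and QC, a glutaminyl cyclase, had 6.45 and 5.27 CPM in V966M/+, against 18.5 and 14.7 CPM in w (log2 fold change -1.50 with SE 0.19, edgeR adjusted p = 0.0091). Both stayed called at every omission. The phosphate carrier NaPi-III had 53.5 and 49.9 CPM in V966M/+, against 101 and 83.8 CPM in w (log2 fold change -0.83 with SE 0.16, edgeR adjusted p = 0.0717), and PXo, which moves phosphate into its storage organelles, had 6.82 and 6.85 CPM in V966M/+, against 15.8 and 18.5 CPM in w (log2 fold change -1.33 with SE 0.21, edgeR adjusted p = 0.0271). Pbgs and PXo share 352 and 579 exon bases with genes on the other strand. Pbgs and NaPi-III lost the call without V966M/+ replicate 3 (edgeR adjusted p = 0.103 to 0.165). Miox, D2hgdh, Pbgs, pr, NaPi-III and PXo lost the call without V966M/+ replicate 4 (edgeR adjusted p = 0.207 to 0.493). Miox, D2hgdh, Pbgs, pr and NaPi-III lost the call without w replicate 3 (edgeR adjusted p = 0.15 to 0.295). Miox, D2hgdh, Pbgs, pr, NaPi-III and PXo lost the call without w replicate 4 (edgeR adjusted p = 0.142 to 0.394). Miox moved by over 1.5 times in fold change, to a log2 fold change of -2.53 without V966M/+ replicate 3.

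More of the lower genes have a known product, and all but Spn88Eb and pst were picked one by one after their values were seen. GluRIID, a glutamate receptor subunit of the neuromuscular junction, had 13.8 and 14.4 CPM in V966M/+ libraries, against 28.1 and 27.1 CPM in w libraries (log2 fold change -0.97 with SE 0.15, edgeR adjusted p = 0.0222). The glial transcription factor repo had 4.94 and 5.36 CPM in V966M/+, against 9.02 and 10.5 CPM in w (log2 fold change -0.92 with SE 0.19, edgeR adjusted p = 0.0809), and cas, a transcription factor of neuroblasts, had 2.01 and 1.61 CPM in V966M/+, against 3.71 and 6.07 CPM in w (log2 fold change -1.42 with SE 0.30, edgeR adjusted p = 0.093). The values within each strain were close for GluRIID and repo. Ctr9, a subunit of the Paf1 elongation complex, had 63.3 and 57.6 CPM in V966M/+, against 138 and 110.5 CPM in w (log2 fold change -1.04 with SE 0.18, edgeR adjusted p = 0.0319). Its neighbour sturkopf, a lipid droplet protein, had 50.8 and 45.7 CPM in V966M/+, against 118 and 117 CPM in w (log2 fold change -1.28 with SE 0.17, edgeR adjusted p = 0.0091), and Herc4, a ubiquitin ligase next to it, had 73.1 and 60.8 CPM in V966M/+, against 141 and 126 CPM in w (log2 fold change -0.99 with SE 0.17, edgeR adjusted p = 0.0355). Ctr9 shares 233 exon bases with its neighbours. The gene pst (pastrel), variants of which are known to alter resistance to Drosophila C virus, had 184 and 193 CPM in V966M/+ libraries, against 427 and 462 CPM in w libraries (log2 fold change -1.24 with SE 0.25, edgeR adjusted p = 0.0853). Spn88Eb, a serpin, was the 1 called of 25 serpins and thioester proteins, with 20.3 and 12.7 CPM in V966M/+, against 44.2 and 37.2 CPM in w (log2 fold change -1.30 with SE 0.22, edgeR adjusted p = 0.0355). repo and pst lost the call without V966M/+ replicate 3 (edgeR adjusted p = 0.144 to 0.161). GluRIID, repo, cas, Ctr9, sturkopf, Herc4, pst and Spn88Eb lost the call without V966M/+ replicate 4 (edgeR adjusted p = 0.106 to 0.504). GluRIID, repo, Ctr9, Herc4, pst and Spn88Eb lost the call without w replicate 3 (edgeR adjusted p = 0.132 to 0.222). GluRIID, repo, cas, Herc4, pst and Spn88Eb lost the call without w replicate 4 (edgeR adjusted p = 0.104 to 0.411).

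Other lower genes have no function assigned here. Srg3 had 2.05 and 3.73 CPM in V966M/+ libraries, against 50.6 and 111 CPM in w libraries (log2 fold change -4.81 with SE 0.57, edgeR adjusted p = 0.0089), and Srg2 had 0.896 and 0.909 CPM in V966M/+, against 16.1 and 5.23 CPM in w (log2 fold change -3.57 with SE 0.47, edgeR adjusted p = 0.00933), with w replicate 3 the highest for Srg2 and w replicate 4 for Srg3. CG18327 had 1.49 and 0.939 CPM in V966M/+, against 8.86 and 15 CPM in w (log2 fold change -3.27 with SE 0.42, edgeR adjusted p = 0.0091), CG9396 had 1.01 and 0.636 CPM in V966M/+, against 7.10 and 8.94 CPM in w (log2 fold change -3.26 with SE 0.38, edgeR adjusted p = 0.00674) and CG18417 had 5.44 and 3.82 CPM in V966M/+, against 17.7 and 23.2 CPM in w (log2 fold change -2.14 with SE 0.24, edgeR adjusted p = 0.00612). All 5 genes stayed called with any library left out. CG8563, which neighbours CG18417 on 3L, had 1.79 and 0.818 CPM in V966M/+, against 10.2 and 9.57 CPM in w (log2 fold change -2.89 with SE 0.45, edgeR adjusted p = 0.024), and CG33346 had 7.30 and 5.58 CPM in V966M/+, against 64.5 and 48.9 CPM in w (log2 fold change -3.14 with SE 0.43, edgeR adjusted p = 0.0131). CG17633 had 407 and 324 CPM in V966M/+ libraries, against 1136 and 1315 CPM in w libraries (log2 fold change -1.75 with SE 0.36, edgeR adjusted p = 0.0834), and CG13360 had 94.8 and 70.9 CPM in V966M/+, against 162 and 194 CPM in w (log2 fold change -1.1 with SE 0.23, edgeR adjusted p = 0.0868). CG6654, CG14642, CG16985 and CG8160 were called at every omission, with log2 fold changes of -1.63 to -1.22 (edgeR adjusted p = 0.00553 to 0.00921). CG14893, lncRNA:CR44922 and asRNA:CR45600 were at 1 to 5 counts in each V966M/+ library. Their ratios of w to V966M/+ were 18.1 (8.04 to 50.3), 20.6 (5.34 to 176) and 37.1 (14.2 to 138) with exact 95% counting intervals (edgeR adjusted p = 0.00627 to 0.0133). CG8563, CG33346, CG17633 and CG13360 lost the call without V966M/+ replicate 4 (edgeR adjusted p = 0.115 to 0.53). CG8563, CG17633 and CG13360 lost the call without w replicate 3 (edgeR adjusted p = 0.124 to 0.189). CG8563, CG17633 and CG13360 lost the call without w replicate 4 (edgeR adjusted p = 0.112 to 0.375). Srg3, Srg2, CG8563, CG14893 and asRNA:CR45600 moved by over 1.5 times in fold change, to log2 fold changes of -4.14 for Srg3 without w replicate 4, -2.54 for Srg2 without w replicate 3, -3.59 for CG8563 without V966M/+ replicate 3, -5.35 for CG14893 without V966M/+ replicate 3 and -5.68 for asRNA:CR45600 without V966M/+ replicate 3.

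**Figure D3:**
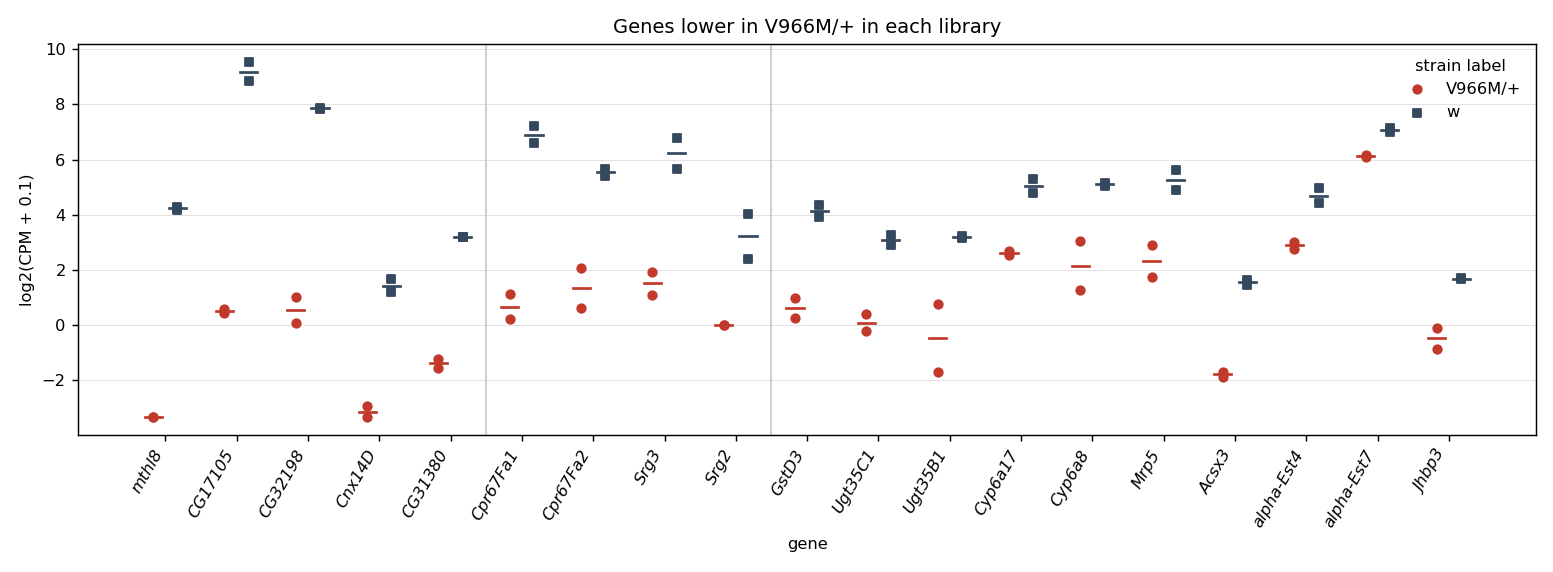
Each point is 1 library of V966M/+ (red circles) or w (dark squares), with genes on the x axis and log2(CPM + 0.1) on the y axis, and short lines mark the mean of the 2 libraries. From left to right the blocks hold genes nearly missing from V966M/+, cuticle and Srg genes, and enzymes, a transporter and Jhbp3. The gene mthl8 sat at 0 CPM in both V966M/+ libraries, against 19.5 and 17.8 CPM in w.

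Muscle and midgut lists differed in their summed level with few or no genes called. Over all genes with a result, 7.93% were lower at an unadjusted p under 0.05, and DESeq2 and the exact test called 4.2% and 3.46% lower. Of 19 muscle markers, a list not limited to the body wall, 0 were called and 11 were lower at an unadjusted p under 0.05. DESeq2 called 8 lower and the edgeR exact test 2. In all 18 were negative, with a median log2 fold change of -1.14 and a summed level of 19857 and 7755 CPM in V966M/+ libraries, against 28630.2 and 33636 CPM in w libraries. Mhc, the muscle myosin heavy chain, had 1781 and 301 CPM in V966M/+, against 2848 and 2504 CPM in w. V966M/+ replicate 4 was the lowest library, and without it the median was -0.68. Gut serine proteases, the trypsins and Jonah enzymes of midgut digestion, had 1 called lower of 36, 31 negative and a median of -0.85. Their summed level was 10182 and 14673 CPM in V966M/+ libraries, against 22548 and 37262 CPM in w libraries, and DESeq2 called 10 lower and the exact test 13. The called member was Ser6, with 12.1 and 4.09 CPM in V966M/+, against 43.1 and 44.2 CPM in w (log2 fold change -2.42 with SE 0.48, edgeR adjusted p = 0.0852). Ser6 lost the call without V966M/+ replicate 4 (edgeR adjusted p = 0.169), w replicate 3 (0.26) and w replicate 4 (0.336). Ser6 moved by over 1.5 times in fold change, to a log2 fold change of -3.41 without V966M/+ replicate 3 and -1.83 without V966M/+ replicate 4. Gut carbohydrate and lipid digestion genes summed to 1764 and 1787 CPM in V966M/+ libraries, against 2519.8 and 2565 CPM in w libraries, with 0 of 23 called, 8 lower at an unadjusted p under 0.05, and 5 and 9 called lower by DESeq2 and the exact test. The part of these differences in other calls was not tested.

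Neuronal, hormonal and storage lists had 0 genes called by the edgeR quasi-likelihood test. For comparison, 3.26% of all genes tested were higher and 7.93% lower at an unadjusted p under 0.05. Of all genes with a result, DESeq2 called 1.48% higher and 4.2% lower, and the exact test 1.91% and 3.46%. Neuron markers summed to 1037 and 1209 CPM in V966M/+ libraries, against 598 and 624 CPM in w libraries, but 7 of 14 were positive, 7 negative, 1 of each at an unadjusted p under 0.05, with 1 called higher by DESeq2 and by the exact test. The gene elav, the pan-neuronal RNA-binding protein, had 51.5 and 28.6 CPM in V966M/+, against 48.4 and 24.3 CPM in w. Ecdysone synthesis and response genes had 22 of 27 positive, 1 at an unadjusted p under 0.05, 0 called by DESeq2 and 3 by the exact test, with a median of 0.42 and a summed level of 2918 and 2276 CPM in V966M/+ libraries, against 1993 and 1512 CPM in w libraries. Imaginal disc markers had 10 of 13 positive, 1 at an unadjusted p under 0.05, 0 called by DESeq2 or the exact test, and a median of 0.24. Fat body storage proteins summed to 59868 and 50994 CPM in V966M/+ libraries, against 64726 and 64887 CPM in w libraries, with 0 of 6 called by any of the 3 tests or at an unadjusted p under 0.05. Of the larval serum proteins, Lsp1gamma had 10309.6 and 5137 CPM in V966M/+, against 11943 and 11709.8 CPM in w, and Lsp2 had 1615 and 918 CPM in V966M/+, against 1644 and 1555 CPM in w. V966M/+ replicate 4 was again the lowest for both. Metal binding genes had 9 of 11 negative, 5 at an unadjusted p under 0.05, 2 called by DESeq2, 0 by the exact test, and a median of -0.58. The female germline, Malpighian tubule, trachea, glue, Osiris, peritrophic, insulin and lipid storage lists had medians from -0.27 to -0.01. The Osiris median turned positive with any library left out, to values of 0.03 to 0.65, and was 0 with genes at the floor held at their bound. The glue median was -0.72 without V966M/+ replicate 4, and the peritrophic median was 0.20 without V966M/+ replicate 4 and 0.14 without w replicate 3. The female germline, Malpighian tubule, trachea, glue and lipid storage medians also turned positive in some omissions, to values of 0.01 to 0.24. In each list from female germline to lipid storage 0 to 3 genes passed an unadjusted p under 0.05 in a given direction. DESeq2 and the exact test called 0 to 3.

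**Figure D4:**
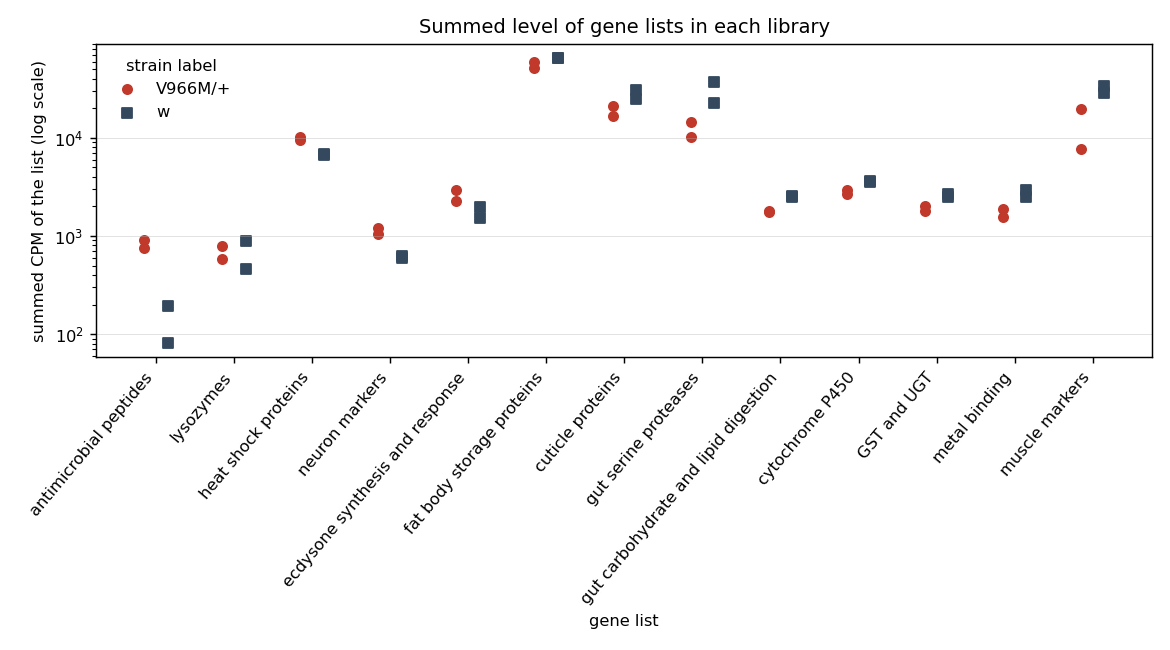
Each point is the summed level of a gene list in 1 library of V966M/+ (red circles) or w (dark squares), in CPM on a log scale, with the lists along the x axis. Antimicrobial peptides summed to 914 and 747 CPM in V966M/+, against 194 and 81.0 CPM in w, and muscle markers to 19857 and 7755 CPM in V966M/+, against 28630 and 33636 CPM in w.

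The small RNA machinery and 5 testis genes from among those the study assayed by qPCR were examined next, and its other qPCR targets were not put in a list. Of 35 small RNA pathway genes, 0 were called by edgeR or DESeq2. At an unadjusted p under 0.05, 1 of them was higher, against 3.26% of all genes tested. The median log2 fold change was 0.10, and the summed level was 1309 and 1111 CPM in V966M/+ libraries, against 1315 and 1009 CPM in w libraries. These 5 testis genes were low in all 4 libraries, and 0 were called by edgeR or DESeq2 or at an unadjusted p under 0.05. The gene nht, a testis TAF, had 2 and 0 counts in V966M/+, against 0 and 0 counts in w. It passed the count filter only through libraries of other strains. DESeq2 gave nht no adjusted p, so it could not call it. The gene blanks had 67 and 30 counts in V966M/+, against 29 and 6 counts in w, and Cyt-c-d had 8 and 3 counts in V966M/+, against 8 and 0 counts in w. These are all genes of the testis. Hsp60C had 0 and 3 counts in V966M/+, against 5 and 1 counts in w, and TrxT had 1 and 0 counts in V966M/+, against 6 and 1 counts in w. At these depths a difference below the floor was not detectable.

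Called genes were most frequent on chromosome 3, which carries AGO2 on its left arm. Chromosome 3 held 72.9% of the calls and 44.1% of the genes tested. The share called was 2.12% on 3R (70 of 3303), 1.61% on 3L (43 of 2669), 0.727% on 2R (20 of 2752), 0.535% on 2L (13 of 2431), 0.426% on X (9 of 2114) and 0 of 99 on 4. Genes higher and genes lower were both most frequent on 3R and next on 3L. Near AGO2 itself 0 of 264 genes within 1 Mb were called, 2 of 442 within 2 Mb and 13 of 1143 (1.14%) within 5 Mb. With called genes no more than 20 kb apart joined, 36 of the 155 fell into 16 groups of neighbours. In 13 of the groups all members changed in the same direction, among them the cecropins, the LysD and LysP pair, the Cpr67Fa pair, the alpha-esterases and the group of Ctr9, sturkopf and Herc4.

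**Figure D5:**
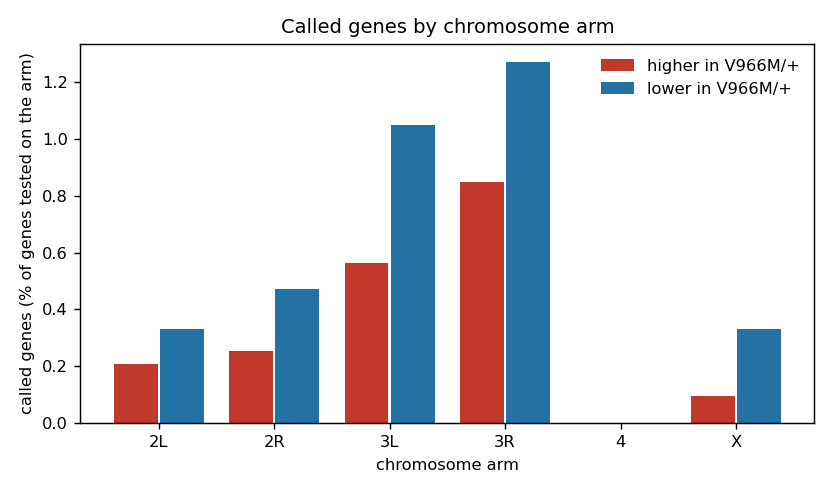
Bars give the called genes as a percentage of the genes tested on each chromosome arm, with genes higher in V966M/+ in red and genes lower in blue. The bars for 3L and 3R are the tallest in both directions, and chromosome 4 had 0 of 99 called.

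V966M/+ was then set beside V966M, the strain labelled with the allele alone. The V966M/+ libraries enter both comparisons, so the values of each are given side by side. Of 13551 genes, 908 (6.7%) were called between V966M/+ and V966M, with 140 higher (1.03%) and 768 lower (5.67%) in V966M/+. This count fell to 24 without V966M/+ replicate 4 and 19 without V966M replicate 4, and it was 17 in a fit of the 2 strains alone.

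Antimicrobial peptide genes included 10 of 20 called higher in V966M/+ than in V966M and 0 called lower, and 4 of the 10 are given here. CecA1 had 30.7 and 12 CPM in V966M/+, against 0.257 and 0.133 CPM in V966M (log2 fold change 6.62 with SE 1.1, edgeR adjusted p = 0.0378). CecC had 110.1 and 117 CPM in V966M/+, against 3.30 and 10.7 CPM in V966M (log2 fold change 4.04 with SE 0.73, edgeR adjusted p = 0.0405). Def had 20.2 and 9.82 CPM in V966M/+, against 0.205 and 0.487 CPM in V966M (log2 fold change 5.59 with SE 0.78, edgeR adjusted p = 0.033), and DptA had 364 and 235 CPM in V966M/+, against 8.38 and 2.52 CPM in V966M (log2 fold change 5.74 with SE 1.34, edgeR adjusted p = 0.0699). The V966M/+ libraries were the higher ones in each of these comparisons. The list summed to 914 and 747 CPM in V966M/+, against 146 and 65.9 CPM in V966M. DptA lost the call against V966M without V966M/+ replicate 3 (edgeR adjusted p = 0.156). CecA1, CecC and DptA lost the call against V966M without V966M/+ replicate 4 (edgeR adjusted p = 0.139 to 0.269). DptA lost the call against V966M without V966M replicate 3 (edgeR adjusted p = 0.123). CecA1, CecC, Def and DptA lost the call against V966M without V966M replicate 4 (edgeR adjusted p = 0.21 to 0.532).

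For LysP, LysD and some other genes higher than in w, the V966M libraries lay between the other strains or near V966M/+. This did not hold for the summed lysozymes, at 571 and 1167 CPM in V966M. Their sums were 585 and 793 CPM in V966M/+, against 463 and 892 CPM in w. LysP had 33.8 and 37.9 CPM in V966M/+, against 15.3 and 18.3 CPM in V966M (log2 fold change 1.1 with SE 0.19, edgeR adjusted p = 0.0364), and w was at 0.621 and 0.759 CPM. LysD had 18.0 and 18.9 CPM in V966M/+, against 6.02 and 10.1 CPM in V966M (log2 fold change 1.21 with SE 0.67, edgeR adjusted p = 0.378). CG14715 had 49.9 and 51.4 CPM in V966M/+, against 40.9 and 57.2 CPM in V966M (log2 fold change 0.05 with SE 0.20, edgeR adjusted p = 0.936), and Cyp12e1 had 26.8 and 23.1 CPM in V966M/+, against 26.6 and 27.1 CPM in V966M (log2 fold change -0.11 with SE 0.14, edgeR adjusted p = 0.743). Values of CG14715, Cyp12e1 and PH4alphaSG2 in V966M lay near those in V966M/+, and both strains lay above w. PH4alphaSG2 had 17.2 and 12.6 CPM in V966M/+, against 11.6 and 18.8 CPM in V966M (log2 fold change -0.02 with SE 0.25, edgeR adjusted p = 0.988). NijC had 51.0 and 52.4 CPM in V966M/+, against 19.0 and 13.9 CPM in V966M (log2 fold change 1.65 with SE 0.27, edgeR adjusted p = 0.0364). LysP and NijC lost the call against V966M without V966M/+ replicate 4 (edgeR adjusted p = 0.139 to 0.203). LysP and NijC lost the call against V966M without V966M replicate 4 (edgeR adjusted p = 0.21 to 0.233).

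Several genes lower than in w were also lower in V966M/+ than in V966M. The gene mthl8 had 0 CPM in both V966M/+ libraries, against 7.44 and 5.97 CPM in V966M (edgeR adjusted p = 0.000571). CG32198 had 1.94 and 0.97 CPM in V966M/+, against 152 and 215 CPM in V966M (log2 fold change -6.96 with SE 0.58, edgeR adjusted p = 0.00396). Cpr67Fa1 had 2.08 and 1.06 CPM in V966M/+, against 82.1 and 299 CPM in V966M (log2 fold change -6.90 with SE 0.77, edgeR adjusted p = 0.0155). All of these transcripts were present in the strain labelled V966M and nearly missing from V966M/+. For mthl8 and CG32198 the V966M values lay between those of V966M/+ and w, and for Cpr67Fa1 they overlapped those of w. Whether this order follows the number of copies of the allele was not tested. GstD3 had 1.86 and 1.09 CPM in V966M/+, against 12.7 and 18.5 CPM in V966M (log2 fold change -3.38 with SE 0.30, edgeR adjusted p = 0.00401), and CG31380 had 0.328 and 0.242 CPM in V966M/+, against 6.28 and 6.19 CPM in V966M (log2 fold change -4.41 with SE 0.24, edgeR adjusted p = 0.000187). Srg3 had 2.05 and 3.73 CPM in V966M/+, against 11.2 and 22.3 CPM in V966M (log2 fold change -2.54 with SE 0.52, edgeR adjusted p = 0.0489), with w at 50.6 and 111 CPM. GluRIID had 13.8 and 14.4 CPM in V966M/+, against 20.6 and 21.3 CPM in V966M (log2 fold change -0.57 with SE 0.15, edgeR adjusted p = 0.0773). Srg3 and GluRIID lost the call against V966M without V966M/+ replicate 3 (edgeR adjusted p = 0.144 to 0.224). Cpr67Fa1, Srg3 and GluRIID lost the call against V966M without V966M/+ replicate 4 (edgeR adjusted p = 0.139 to 0.314). Srg3 and GluRIID lost the call against V966M without V966M replicate 4 (edgeR adjusted p = 0.352 to 0.404). The eye colour gene white, which gives the w strain its name, had 0.0218 and 0.0909 CPM in V966M/+ and 0.633 and 1.59 CPM in V966M, against 0.073 and 0 CPM in w.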

How the data were processed

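Polyadenylated RNA of whole female larvae was sequenced as single-end reads. Per the labels and the study's methods, the authors trimmed reads with cutadapt 1.10, aligned them to dm6 with HISAT2 2.0.4 and counted exonic reads per gene without strand with featureCounts 1.5.0-p3, and they deposited raw counts. Gene names and positions came from an Ensembl annotation in dm6 coordinates, which matched 17210 of 17402 genes.

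Libraries were grouped by strain label. Genes reaching 10 counts in total across all 10 libraries were fitted with strain as the only term in edgeR 4.0.16 (quasi-likelihood test, TMM normalization, R 4.3.3), and an adjusted p under 0.1 was a call. DESeq2 1.42.0, the edgeR exact test, RLE normalization, other filters and thresholds, a fit of the compared strains alone, a replicate block and omission of each library were the alternatives. Standard errors were derived from the fold change and its F statistic. No source says that libraries of a strain came from separate cultures, so p-values measure only the spread between these libraries. In each pair the 2 libraries differed by more than counting noise (chi-square per degree of freedom 219 in V966M/+ and 189 in w). The fit was tested on simulated data for V966M/+ against w with 13293 genes. There 197 of 200 genes changed 4-fold were called along with 24 unchanged genes. The simulated spread depended on the level of a gene alone, and genes of low level were not among those changed. The recovery therefore does not give the share of changes detected in the real libraries.

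Genes were named by a rule: AGO2, 5 testis genes that the study assayed by qPCR, every called gene in a list, the 12 genes per direction with the largest fold change when called genes were limited to means from 5 CPM up and to strains that did not overlap, and the 5 per direction with the highest level. This gave 59 genes, and all other genes were named after their values were seen. The comparison, lists and rule were chosen with earlier results of these data known. No sequences are shown.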

Additional observations from a re-analysis of the deposited data

How the results depend on the processing

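The call count of V966M/+ against w depended on the test. DESeq2 called 665 genes (173 higher, 492 lower) and the edgeR exact test 647 (230 higher, 417 lower). At an adjusted p under 0.05 the quasi-likelihood test called 103, with 59 lower. With 1 library left out it called 72 to 505, of which 22 to 73 were higher and 33 to 432 lower, and the largest count came without V966M/+ replicate 3. The causes were not tested. Of the 155 calls, DESeq2 lost 0, the exact test 1, RLE normalization 6, filterByExpr 0, no count filter 9 and the fit of the 2 strains alone 53. Against V966M the 908 calls became 1686 with DESeq2, 17 in the fit of the 2 strains alone, 312 at an adjusted p under 0.05, and 19 to 1616 with 1 library left out. Chromosome 3 held 72.9% of calls and 59.6% of those made by DESeq2.

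With the replicate number as a replicate block, 294 genes were called against w (100 higher, 194 lower), 8 of the 155 calls were lost (CecA1, CG42779, Miox, Ser6 and CG17105 among the genes described), and 1800 were called against V966M. Libraries of the same number shared deviations with r of 0.309 between V966M/+ and w and 0.0729 between V966M/+ and V966M over 9656 genes. Over the 10 pairs of strains r ran between -0.0264 and 0.609, with 7 over 0.1. In every strain replicate 3 had more total counts and a higher mitochondrial share than replicate 4. Nothing in the labels says that a number marks a shared batch, so the libraries were not treated as paired. Whether the number marks another shared factor was not tested.

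Among the 59 genes named by the rule, 3 that were not called changed direction in 1 omission each. With 1 library left out, the log2 fold change ran between -0.048 (without w replicate 4) and 0.53 for AGO2, between -0.10 (without w replicate 4) and 5.24 for Cyt-c-d and between -4.48 and 0.30 (without V966M/+ replicate 3) for Hsp60C. The values of 5.24 and -4.48 were fitted against a strain left with 0 counts and are no bound. The called genes among them kept their direction under every alternative run. With 2 libraries per strain, leaving 1 out assumes that the lone library varies like the other strains. Levels under the floor of 3 counts could not be compared.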
